A study of Homo sapiens with 9 samples.

Results

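Long intergenic noncoding RNAs named in the numbered LINC series were examined in MDA-MB-231 cells, a human triple-negative breast cancer cell line, after treatment with TEPA, a copper chelator. Members were the gene names made of LINC followed by digits whose mean level over the 9 libraries was at least 0.5 CPM (counts for each 1e6 counts of the library). Of 59453 gene names in the count table, 2130 were LINC names, and 173 met this rule. Of the rest, 1310 had no count in any library and 647 had counts but stayed below the rule. All 173 members were among the 16556 genes kept for testing, as were 91 LINC names below the rule. The rule used the mean level over all libraries and no difference between groups, so levels are described and differences between groups are tested.

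Cells of this 1 line were grown in DMEM with serum and were untreated, or were given TEPA for 8 h or for 24 h, with 3 libraries in each group. The labels give no collection time for the untreated cells, which served as the control for both times. TEPA and time in culture therefore cannot be told apart. The study's methods put TEPA in the RNA sequencing experiment at 4 mM and the design text puts it at 8 mM. Libraries were stranded and made from polyadenylated RNA, so transcripts without a poly(A) tail lie outside the measurement. Nothing in the labels says that the replicates were separate cultures, so the p-values measure only the spread between these libraries.

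Long intergenic noncoding RNAs are transcribed by RNA polymerase II from loci that lie, by name, between protein-coding genes. Many are spliced, capped and polyadenylated like messenger RNA but carry no long reading frame, and they are usually present at lower levels and in fewer cell types than messenger RNAs. Some act in the nucleus on the chromatin of neighbouring genes, some bind proteins or microRNAs, some hold microRNA genes in their introns or exons, and for most no function is known. Many are kept low by the nuclear exosome, which degrades RNA from its 3′ end. In breast cancer, LINC00511 has been described as growth promoting and LINC00472 as growth suppressing.

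Library totals ran from 34633755 to 49342659 counts. The epithelial and mesenchymal markers of this line were present, with VIM at 3672 CPM and KRT18 at 301 CPM in untreated cells, EGFR at 434 CPM and CD44 at 858 CPM. ESR1 and PGR, the receptors absent from triple-negative lines, were at 0.16 CPM or less in each group, while ERBB2 was at 81.3 CPM in untreated cells. The leukocyte markers PTPRC and CD3E and the fibroblast marker PDGFRA were at 0.07 CPM or less, whereas COL1A1 was at 13.7 to 32.4 CPM and the endothelial marker PECAM1 at 1.06 to 8.13 CPM in the group means. Mitochondrial transcripts took 1.79 to 2.91% of counts in untreated libraries, 3.61 to 4.02% at 8 h and 1.89 to 2.02% at 24 h. The counts of members called were the same when these genes were left out of the library sizes.

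The members were mostly scarce. Their median level was 2.09 CPM against 17.7 CPM for all genes tested, and 18 members reached 10 CPM, 106 lay between 1 and 10 CPM and 49 lay under 1 CPM. The highest was LINC02693 at 75.2 CPM and the lowest was LINC00239 at 0.513 CPM, on the scale of the rule. Summed over the members, the level was 864 ± 19.1 CPM without TEPA, and with TEPA it was 805 ± 4.61 CPM at 8 h and 843 ± 11.6 CPM after 24 h (SD, n = 3). The 3 libraries at 8 h, between 800 and 809 CPM, were below all others, which ran from 830 to 885 CPM. The 10 highest members held 37.5 to 42.5% of this sum in each library. In 148 members the group mean was at least 0.5 CPM in all 3 groups. In 18 it was so in 2 groups and in 7 in 1 group only, and a member that entered the rule through 1 high group had to differ between groups. Entry through 2 groups likewise favoured a difference from the third group.

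Against untreated cells, 39 members were higher and 40 lower at 8 h (edgeR quasi-likelihood test, Benjamini-Hochberg over all genes tested). A gene is called here where the adjusted p lies under 0.05. That is 45.7% of the members, against 49.7% of all genes tested, of which 25.3% were higher and 24.5% lower. At 24 h, 51 members were higher and 28 lower, again 45.7%, against 52.3% of all genes tested, of which 25.6% were higher and 26.7% lower. Both comparisons share the untreated libraries. From 8 h to 24 h, 63 members were higher and 37 lower, or 57.8% against a background of 54.9%, of which 26.1% were higher and 28.8% lower. Among the tested genes that reach 0.5 CPM, the shares called were 53.4%, 56.5% and 58.8%. In all, 124 members (71.7%) differed among the 3 groups, with a background of 71.9%. The shares called were thus near the background, while the direction among members was tilted upwards at 24 h, with 29.5% higher and 16.2% lower against untreated cells and 36.4% higher and 21.4% lower against 8 h. The tilt against untreated cells was smaller in 128 members with no near-identical copy, no shared exon bases and 1 gene model. These gave 34 higher and 25 lower (median log2 fold change 0.07), and the other 45 gave 17 and 3 (median 0.23). From 8 h to 24 h the 128 gave 46 and 27, and the 45 gave 17 and 10. The median log2 fold change of the members was -0.06 at 8 h, 0.14 at 24 h and 0.12 from 8 h to 24 h, where the medians of all genes tested were between -0.02 and 0.00.

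**Figure D1:**
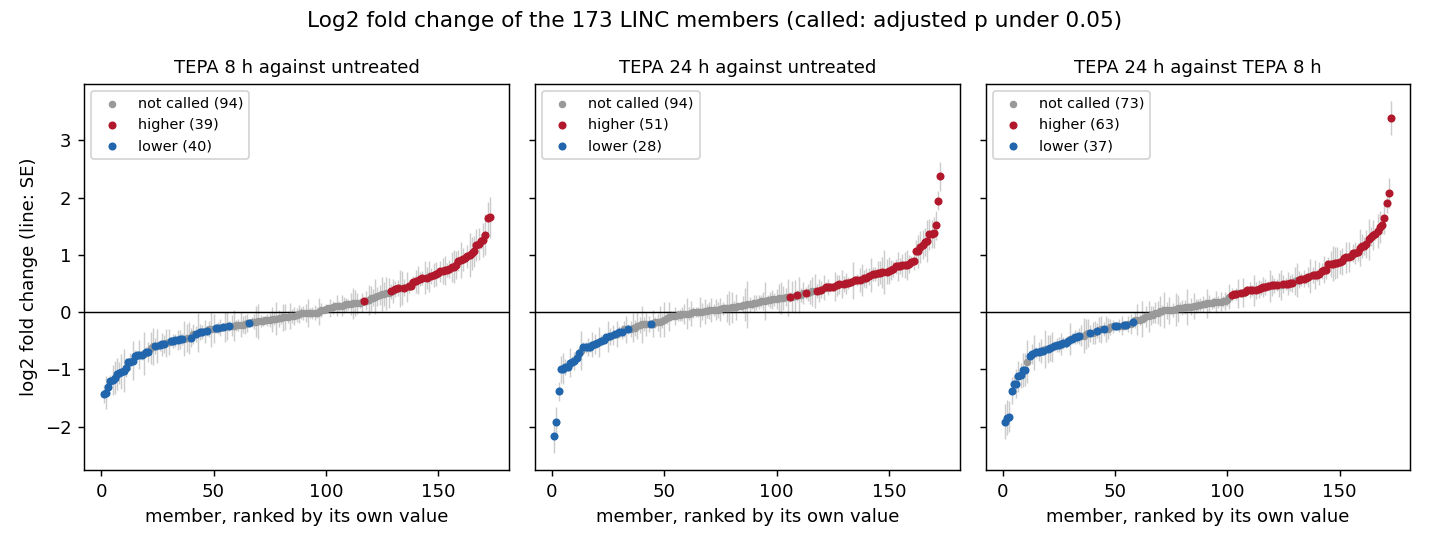
Each of the 173 members is a point at its log2 fold change, with a line of 1 SE on either side, ranked by its own value in each panel and coloured where the adjusted p was under 0.05. The counts in the panels are 39 higher and 40 lower at 8 h, 51 and 28 at 24 h, and 63 and 37 from 8 h to 24 h, and the steepest ends are LINC02009 at 3.39 from 8 h to 24 h and LINC01291 at -2.16 at 24 h.

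Differences were larger among members than among all genes tested, which lie at higher levels. The background below is not matched for level, so it cannot separate a trait of members from one of low counts. Members between 0.5 and 1 CPM had a median SE of 0.28 at 8 h, and those between 10 and 100 CPM one of 0.07. The median size of the log2 fold change was 0.36 at 8 h, 0.36 at 24 h and 0.45 from 8 h to 24 h, against 0.22, 0.24 and 0.25 for all genes tested. With a further limit of 0.5 on the size, 32 members were higher and 26 lower at 8 h, or 33.5% against a background of 17.8% (10.1% higher, 7.65% lower). At 24 h they were 39 and 20, or 34.1% against 18.6% (10.2% higher, 8.4% lower). From 8 h to 24 h they were 43 and 25, or 39.3% against 21.2% (10.4% higher, 10.8% lower). At a limit of 1, the members called were 9 higher and 10 lower at 8 h, with a background of 6.8% (4.36% higher, 2.43% lower). They were 12 and 4 at 24 h, with a background of 6.75% (3.93% higher, 2.82% lower), and 18 and 10 from 8 h to 24 h, with a background of 7.95% (4.13% higher, 3.83% lower).

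**Figure D2:**
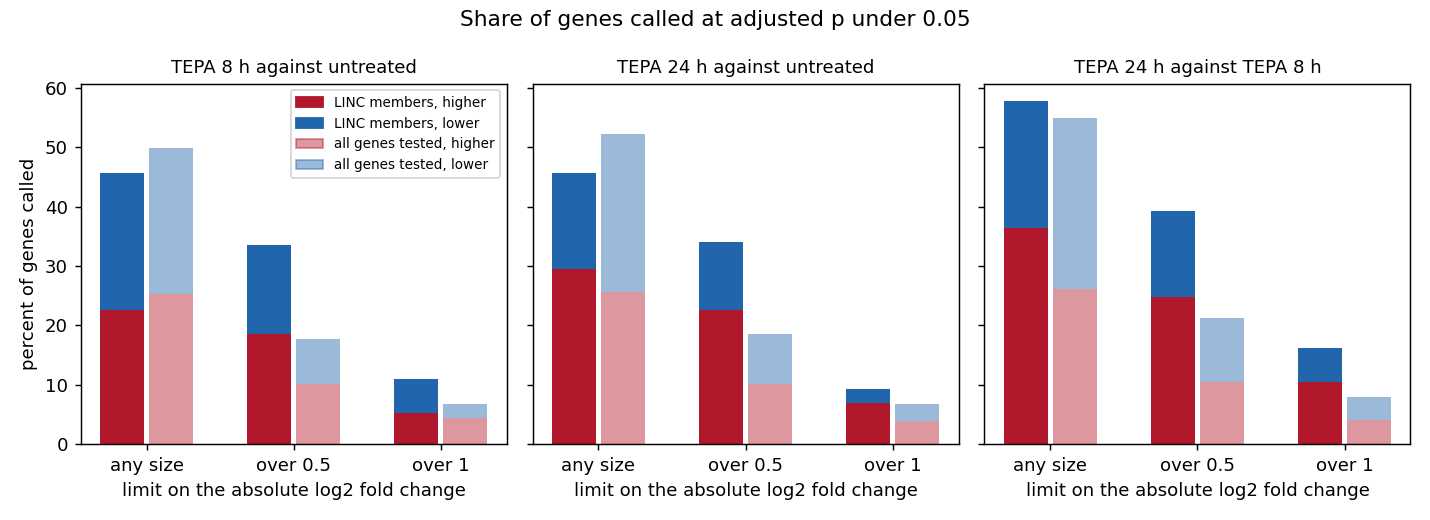
Bars give the percent of the 173 members (dark) and of all 16556 genes tested (pale) called higher and lower in each comparison, at any size and at 2 limits on the log2 fold change. At any size the bars of members and of all genes are close, at 45.7% and 49.7% at 8 h, and at a limit of 0.5 the members stand at 33.5% and all genes at 17.8%. All genes tested lie at higher levels than the members and are not matched to them.

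The level of a member went with the direction of its call. At 24 h, 13 of the 49 members between 0.5 and 1 CPM were higher and 1 was lower, whereas 4 of the 18 members between 10 and 100 CPM were higher and 7 lower. The shares called were 28.6% and 61.1% of members in these bands, near the 31.2% and 62.4% of all tested genes there. The median log2 fold change at 24 h was 0.27 in the lowest band of members and 0.14 among all 1332 tested genes of that band, so low genes as a whole leaned the same way. In the band from 10 to 100 CPM it was -0.07 for members and -0.01 for all genes. The number of members with no overlap between the 3 treated and the 3 untreated libraries was 94 at 8 h (46 higher, 48 lower), or 54.3% against a background of 57.8% (29.2% higher, 28.6% lower). At 24 h it was 88 (55 higher, 33 lower), or 50.9% against 57.2% (28.4% higher, 28.9% lower). Between 8 h and 24 h it was 117 (69 higher, 48 lower), or 67.6% against 62.0% (29.6% higher, 32.4% lower). By group mean, the highest group was 24 h for 82 members, 8 h for 51 and untreated for 40, and the lowest group was 8 h for 79, untreated for 54 and 24 h for 40. Of the 25 members below 0.5 CPM in at least 1 group, 12 were called higher and 5 lower at 8 h, and 9 and 1 at 24 h. The other 148 gave 27 higher and 35 lower at 8 h and 42 and 27 at 24 h. Over all genes tested, 25.3% were higher and 24.5% lower at 8 h, and 25.6% and 26.7% at 24 h.

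**Figure D3:**
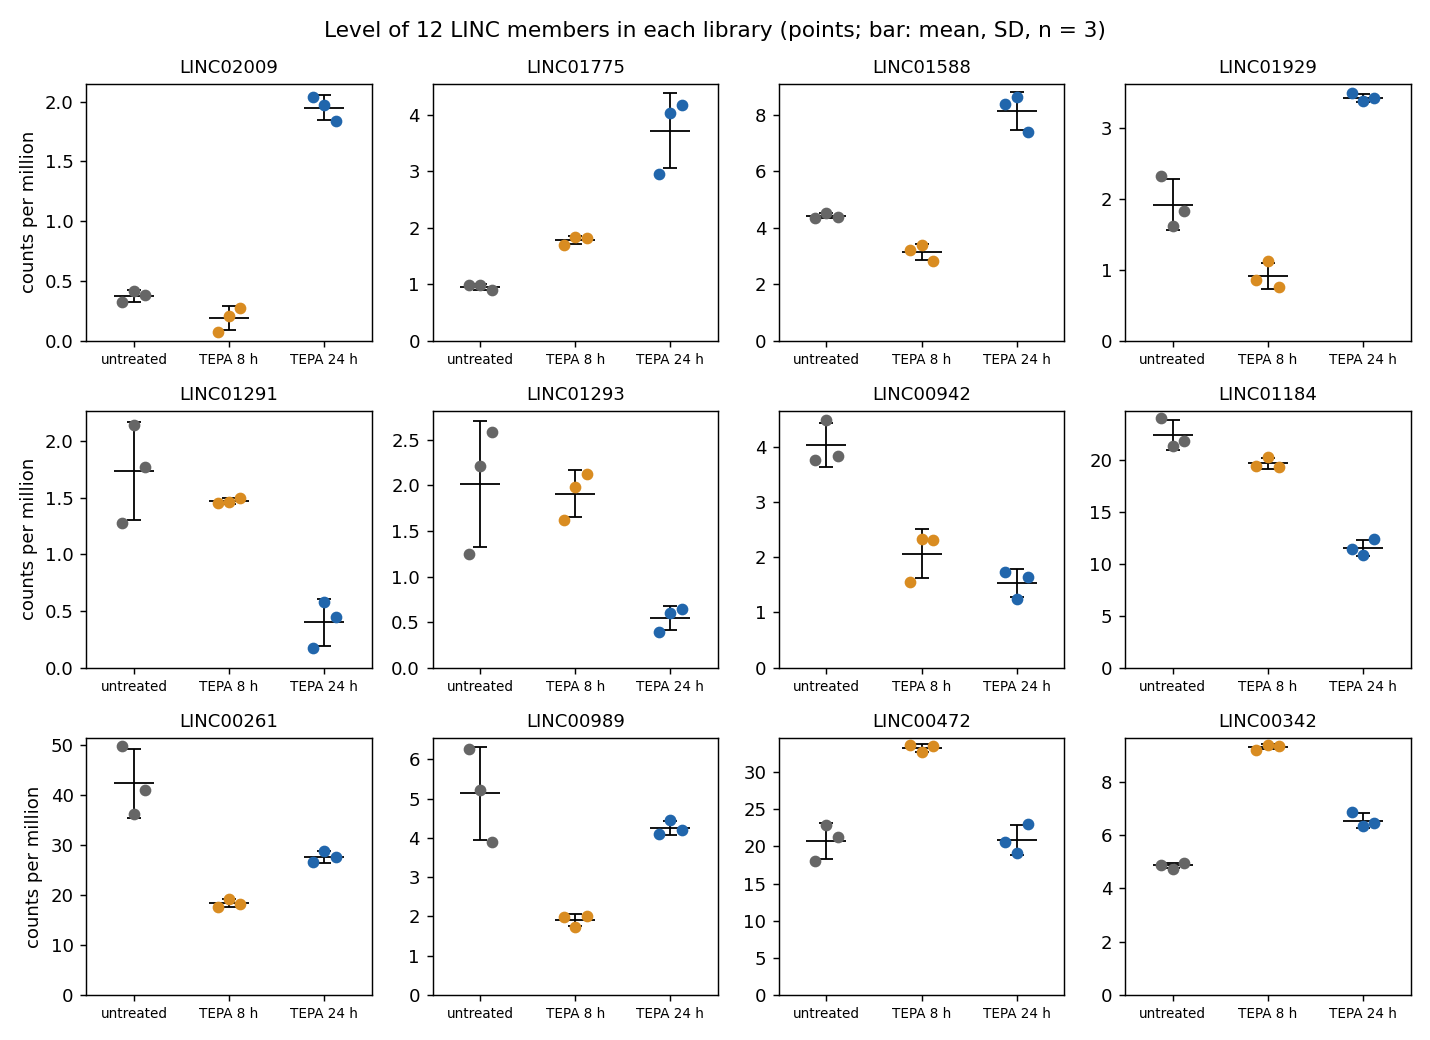
Points are the CPM of 12 members in each of the 9 libraries, with the mean and SD of each group (n = 3) in black, on axes that start at 0 and differ between panels. The top row holds members that were highest at 24 h, such as LINC02009 at 1.83 to 2.04 CPM, the middle row members that were lowest at 24 h, and the bottom row members whose 8 h libraries lay apart from both other groups.

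The members with the largest rises at 24 h were LINC02009 and LINC01775. LINC02009 (chr3:46416524-46423591, minus strand, GRCh38), 3527 bases from CCRL2, stood at 0.32, 0.416 and 0.38 CPM in untreated cells, at 0.075, 0.209 and 0.272 CPM at 8 h and at 2.04, 1.97 and 1.83 CPM at 24 h. The 24 h libraries lay far above all others, and the 8 h libraries lay below the untreated ones. The log2 fold change of LINC02009 at 8 h was -1.02 ± 0.38 (SE; adjusted p = 0.032 by edgeR), and it was 2.37 ± 0.25 at 24 h and 3.39 ± 0.29 from 8 h to 24 h. LINC02009 reached 0.5 CPM at 24 h only and is 1 of the 7 members that entered the rule through a single group, so its values at 24 h are a description. The call at 8 h rests on few counts and was lost when TEPA 8 h replicate 1 was left out (log2 fold change -0.64, adjusted p = 0.164), and likewise without untreated replicate 2 (-0.94, adjusted p = 0.083) or untreated replicate 3 (-1.02, adjusted p = 0.062). CCRL2, an atypical chemokine receptor that binds chemerin, stood at 10.5 ± 0.81 CPM without TEPA, at 6.05 ± 0.27 after 8 h and at 13.2 ± 0.99 after 24 h (SD, n = 3), so it too was lowest at 8 h and highest at 24 h.

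LINC01775 (chr19:2458935-2462185, minus strand), 1976 bases from the lamin gene LMNB2, rose at both times. Its libraries read 0.986, 0.985 and 0.887 CPM untreated, 1.7, 1.83 and 1.82 CPM at 8 h and 2.96, 4.03 and 4.17 CPM at 24 h. The 3 groups did not overlap, and the log2 fold changes were 0.90 ± 0.19 after 8 h (adjusted p = 0.00054) and 1.95 ± 0.17 after 24 h of TEPA (adjusted p = 1.7e-08). LMNB2 itself, at 766 CPM in untreated cells, had -0.02 at 8 h (adjusted p = 0.717) and fell at 24 h by 0.26 on the log2 scale.

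LINC01588, LINC01929 and LINC01505 were, like LINC02009, lower at 8 h and higher at 24 h than untreated cells. LINC01588 on chromosome 14 read 4.34, 4.51 and 4.38 CPM untreated, 3.2, 3.4 and 2.83 CPM at 8 h and 8.37, 8.64 and 7.36 CPM at 24 h, with log2 fold changes of -0.49 ± 0.11 (adjusted p = 0.0014) and 0.88 ± 0.10 (adjusted p = 5.7e-07). LINC01929, on chromosome 18 and 97879 bases from the transcription factor gene TCF4, read 1.62 to 2.32 CPM untreated, 0.761 to 1.12 CPM at 8 h and 3.38 to 3.49 CPM at 24 h. Its log2 fold changes were -1.06 ± 0.19 and 0.84 ± 0.16, each called. In these genes no library of one group overlapped another group. LINC01505 on chromosome 9 went from 0.914 ± 0.27 CPM in untreated cells to 0.338 ± 0.035 at 8 h and 1.44 ± 0.095 at 24 h. Its rise at 24 h of 0.68 (adjusted p = 0.015) was no longer called without untreated replicate 2 (0.47, adjusted p = 0.095) or without TEPA 24 h replicate 1 (0.65, adjusted p = 0.051).

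The other members with the largest rises at 24 h were LINC02475 (1.52 ± 0.25), LINC02018 (1.39 ± 0.27), LINC00622 (1.37 ± 0.25), LINC01341 (1.36 ± 0.27), LINC01409 (1.25 ± 0.36) and LINC00513 (1.23 ± 0.24), all under 2 CPM in every library. LINC02475, LINC02018 and LINC00513 were not called at 8 h, with log2 fold changes between 0.33 and 0.42, though LINC02018 was (0.85, adjusted p = 0.037) without untreated replicate 2. LINC01341 and LINC01409, both on chromosome 1, also rose at 8 h, by 1.65 ± 0.27 and 1.66 ± 0.36, the largest rises at that time. LINC01341 read 0.346 to 0.456 CPM untreated, 0.993 to 1.41 CPM at 8 h and 0.75 to 1.25 CPM at 24 h, with no overlap between treated and untreated libraries. LINC01341, LINC01409 and LINC00622 averaged 0.38, 0.27 and 0.45 CPM untreated and reached 0.5 CPM in the TEPA groups only. The rule therefore favoured their rises, which are a description to that extent. LINC01409 has 3 near-identical stretches elsewhere in the genome, so its count is uncertain, and its call at 24 h did not hold without TEPA 24 h replicate 2 (0.95, adjusted p = 0.056).

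Promoter windows are given for the members with the largest rises at 24 h, LINC02009 and LINC01775. They are also given for LINC01505 (-1.41 at 8 h) and LINC00942 (-1.39 at 24 h). These had the largest falls at either time among members with a window to print. The windows are as RefSeq holds them (GRCh38.p14), from 250 bases before to 50 bases after the start. Capitals mark letters of the motifs searched. In LINC02009 they mark AP-1 (TGANTCA), the hypoxia response element (ACGTG, here on both strands of CACGTG) and the metal response element (TGCACNC or TGCGCNC). In LINC01775 they mark TEAD (GGAATG), 2 metal response elements and SP1 (GGGCGG, read on the other strand), and in LINC00942 the hypoxia response element and the antioxidant response element (TGACNNNGC). The windows lie at chr3:46423618-46423917 (minus strand), chr19:2462136-2462435 (minus strand), chr9:106615808-106616107 (plus strand) and chr12:1500241-1500540 (plus strand). The LINC01505 window lies inside the longer GENCODE span of that gene, not at its outer start, and none of the motifs was found in it.
LINC02009: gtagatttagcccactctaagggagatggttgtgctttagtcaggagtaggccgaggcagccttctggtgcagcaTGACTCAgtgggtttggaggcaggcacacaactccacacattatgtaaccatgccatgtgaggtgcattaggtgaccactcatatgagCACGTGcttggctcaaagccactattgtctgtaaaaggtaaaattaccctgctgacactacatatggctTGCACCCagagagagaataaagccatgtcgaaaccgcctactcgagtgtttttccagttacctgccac
LINC01775: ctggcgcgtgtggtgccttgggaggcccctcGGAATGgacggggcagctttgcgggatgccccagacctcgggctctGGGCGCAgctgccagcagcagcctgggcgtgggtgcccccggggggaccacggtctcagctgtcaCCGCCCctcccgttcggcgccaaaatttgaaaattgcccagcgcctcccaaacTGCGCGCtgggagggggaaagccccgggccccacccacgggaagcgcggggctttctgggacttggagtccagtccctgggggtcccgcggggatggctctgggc
LINC01505: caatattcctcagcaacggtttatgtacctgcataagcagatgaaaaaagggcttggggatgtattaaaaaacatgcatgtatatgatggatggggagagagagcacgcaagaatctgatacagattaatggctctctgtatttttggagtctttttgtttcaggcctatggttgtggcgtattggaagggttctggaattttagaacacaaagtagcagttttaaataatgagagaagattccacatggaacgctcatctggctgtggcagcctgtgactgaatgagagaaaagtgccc
LINC00942: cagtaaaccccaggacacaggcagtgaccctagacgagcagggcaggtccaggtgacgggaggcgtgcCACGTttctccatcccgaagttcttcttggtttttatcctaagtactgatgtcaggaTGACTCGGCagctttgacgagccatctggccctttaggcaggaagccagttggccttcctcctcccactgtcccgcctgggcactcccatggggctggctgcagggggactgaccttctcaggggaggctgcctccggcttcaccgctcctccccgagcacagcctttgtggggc

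Of the 173 members, 136 had a RefSeq promoter among 27305 in all. Matched on either strand, the metal response element occurred in 30.1% of members' promoters and 29.3% of all promoters, and the hypoxia response element in 24.3% and 21.6%. The antioxidant response element occurred in 22.1% of members' promoters against 13.6% of all, and AP-1 in 14.7% against 7.76%. SP1 (46.3% and 44.6%), TEAD (13.2% and 14.0%) and the TATA box (TATAAA, 11% and 12%) were at like shares. The C/EBP-ATF response element (TGATGCAAT) occurred in no member and in 0.264% of all promoters, and the SMAD element (GTCTAGAC) in 1 member, or 0.735%, and 0.201% of all. The letters of AP-1 and of the antioxidant response element can overlap. A match only says that these letters are in the window. Median GC content was 59.8% in members and 58.3% in all promoters.

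The largest falls at 24 h were in LINC01291 and LINC01293, which lie on the plus strand of chromosome 2 with 1840 bases between them (chr2:74918148-74938418 and chr2:74940258-74942670). LINC01291 read 1.28, 2.14 and 1.77 CPM untreated, 1.45, 1.46 and 1.5 CPM at 8 h and 0.176, 0.579 and 0.445 CPM at 24 h. LINC01293 read 1.25, 2.21 and 2.59 CPM untreated, 1.62, 1.99 and 2.12 CPM at 8 h and 0.392, 0.602 and 0.639 CPM at 24 h. In both, the 24 h libraries lay below all others and the 8 h libraries overlapped the untreated ones. At 24 h the fitted values were -2.16 ± 0.30 (adjusted p = 7.1e-06) and -1.92 ± 0.27 (adjusted p = 8.7e-06), and at 8 h they were -0.25 (adjusted p = 0.42) and -0.09 (adjusted p = 0.77). POLE4, the nearest protein-coding gene and a DNA polymerase epsilon subunit, had a log2 fold change of 0.13 at both times.

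LINC00942 (chr12:1500525-1504424, plus strand), 4592 bases from ERC1, fell at both times. It read 3.76, 4.49 and 3.83 CPM untreated, 1.55, 2.33 and 2.31 CPM at 8 h and 1.73, 1.25 and 1.64 CPM at 24 h. Treated and untreated libraries did not overlap, and the log2 fold changes were -0.97 ± 0.16 after 8 h (adjusted p = 7.4e-05) and -1.39 ± 0.17 after 24 h (adjusted p = 1.3e-06). LINC00942 had -0.41 from 8 h to 24 h (adjusted p = 0.062), which was called without TEPA 8 h replicate 1 (-0.58, adjusted p = 0.011). ERC1 had -0.05 and 0.12 against untreated cells. LINC01184, whose start lies 594 bases from that of the cotransporter gene SLC12A2 on the other strand, read 24.1, 21.4 and 21.8 CPM untreated, 19.4, 20.3 and 19.3 CPM at 8 h and 11.4, 10.8 and 12.4 CPM at 24 h. The 3 groups were apart, and LINC01184 fell by 0.19 ± 0.07 on the log2 scale in the first comparison (adjusted p = 0.026) and by 0.96 ± 0.07 in the second (adjusted p = 1.5e-09). The small fall at 8 h lost its call without untreated replicate 1 (-0.14, adjusted p = 0.11) or without TEPA 8 h replicate 1 or 3 (-0.18 in both, adjusted p = 0.065 and 0.076). SLC12A2 had 0.19 (adjusted p = 0.010) and -0.06 (adjusted p = 0.418) in these comparisons.

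The remaining members among the 8 largest falls at 24 h were LINC02595 (-1.001 ± 0.24), LINC02223 (-0.99 ± 0.27), LINC02228 (-0.96 ± 0.14) and LINC01426 (-0.88 ± 0.25). LINC02228 read 3.48 to 4.18 CPM untreated, 2.33 to 2.82 CPM at 8 h and 1.74 to 2.28 CPM at 24 h, and it fell at 8 h too, by 0.59 on the log2 scale. Between 8 h and 24 h its difference of -0.37 (adjusted p = 0.041) was no longer called without TEPA 8 h replicate 1 (adjusted p = 0.163), TEPA 8 h replicate 3 (adjusted p = 0.077), TEPA 24 h replicate 1 (adjusted p = 0.098), TEPA 24 h replicate 2 (adjusted p = 0.158) or untreated replicate 3 (adjusted p = 0.054). This call was also lost with DESeq2 (adjusted p = 0.090), and in edgeR with no filter on low counts (adjusted p = 0.071) or only the 2 groups compared (adjusted p = 0.055). LINC01426, 2915 bases from the transcription factor gene RUNX1, had -0.75 at 8 h (adjusted p = 0.021), which was lost without untreated replicate 1 (-0.58, adjusted p = 0.073) or TEPA 8 h replicate 2 (-0.59, adjusted p = 0.097). RUNX1 had 0.24 at 8 h and 0.06 at 24 h.

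At 8 h the largest falls were in LINC00989, LINC01505, LINC01615 and LINC00261. LINC00989 on chromosome 4 read 6.26, 5.23 and 3.9 CPM untreated, 1.97, 1.72 and 2.01 CPM at 8 h and 4.1, 4.45 and 4.2 CPM at 24 h. The 8 h libraries lay below all others, and the 24 h libraries fell within the untreated range. At 8 h LINC00989 had -1.43 ± 0.16 (adjusted p = 5.4e-07), and at 24 h it had -0.27 (adjusted p = 0.11). The value at 24 h was called only without untreated replicate 3, the lowest of its group (-0.43, adjusted p = 0.009). LINC01615, 52773 bases from the thrombospondin gene THBS2, had the same course, from 4.44 ± 0.84 CPM in untreated cells to 1.79 ± 0.21 at 8 h and 5.15 ± 0.54 at 24 h, with -1.30 ± 0.16 at 8 h (adjusted p = 1.5e-06). At 24 h it had 0.21 (adjusted p = 0.19), which was called without untreated replicate 1 (0.36, adjusted p = 0.024).

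LINC00261 (chr20:22547663-22578642, minus strand), known from endoderm differentiation, lies 2356 bases downstream of FOXA2, a pioneer transcription factor gene on the same strand. It was one of the most abundant members, at 49.8, 36.3 and 41 CPM untreated, 17.7, 19.3 and 18.1 CPM at 8 h and 26.5, 28.8 and 27.5 CPM at 24 h. The 3 groups did not overlap. The log2 fold change came to -1.20 ± 0.10 at 8 h (adjusted p = 4.3e-07) and -0.61 ± 0.09 after 24 h (adjusted p = 9.5e-05). FOXA2 stood at 81.1 ± 7.48, 59.5 ± 1.23 and 65.1 ± 2.42 CPM in the 3 groups (SD, n = 3), or -0.45 at 8 h and -0.31 at 24 h, both called. LINC01182 (-1.19 ± 0.26), LINC01943 (-1.15 ± 0.29) and LINC02223 (-1.08 ± 0.28) complete the 8 largest falls at 8 h, with LINC01929.

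Besides LINC01341 and LINC01409, the largest rises at 8 h were LINC00235 (1.35 ± 0.36), LINC00926 (1.26 ± 0.30), LINC00842 (1.24 ± 0.13), LINC01355 (1.19 ± 0.27), LINC01238 (1.17 ± 0.28) and LINC00894 (1.06 ± 0.27). LINC00842 read 1.87, 1.82 and 2.08 CPM untreated, 5, 4.55 and 4.02 CPM at 8 h and 3.43, 3.1 and 3.47 CPM at 24 h, with all 3 groups apart. It has 1 near-identical stretch elsewhere in the genome, so its count is uncertain. LINC01238, LINC01355 and LINC00926 were high at 8 h only, with 0.926 ± 0.17, 1.3 ± 0.16 and 0.851 ± 0.06 CPM there against at most 0.76 CPM in any untreated or 24 h library. LINC01238 and LINC00926 reached 0.5 CPM at 8 h only, so their rises are a description too. LINC00235 and LINC00894, at 0.39 and 0.47 CPM untreated, reached it in the TEPA groups only, so the rule favoured their rises. LINC01238 carries annotation at 2 separate loci and was given no position. LINC00894 had 0.69 at 24 h (adjusted p = 0.042), and this call was lost with DESeq2 (adjusted p = 0.081) and when any 1 library other than untreated replicate 1 was left out (adjusted p from 0.050 to 0.203). LINC00235 had 0.70 at 24 h (adjusted p = 0.13), where TEPA 24 h replicate 3, at 1.11 CPM, lay apart from 0.412 and 0.463 CPM, and without TEPA 24 h replicate 1 the value was 0.97 (adjusted p = 0.048).

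From 8 h to 24 h, the largest rises were in LINC02009 (3.39), LINC01505 (2.08), LINC01929 (1.91), LINC01085 (1.65), LINC01615 (1.52), LINC00957 (1.49), LINC02257 (1.42) and LINC01588 (1.37). LINC01085 read 1.48 to 1.95 CPM at 24 h and at most 0.988 CPM in any other library. LINC00957 had -1.04 at 8 h against untreated cells (adjusted p = 0.0075), but untreated replicate 1, at 1.55 CPM, lay above 0.7 and 0.811 CPM in the others. Without it the value was -0.63 (adjusted p = 0.075), and at 24 h it became 0.86 (adjusted p = 0.004) from 0.45 (adjusted p = 0.15). LINC00957 has 3 near-identical stretches elsewhere in the genome, so its count is uncertain. The largest falls from 8 h to 24 h were in LINC01291 (-1.91), LINC01238 (-1.84), LINC01293 (-1.83), LINC02595 (-1.37), LINC01605 (-1.26), LINC01004 (-1.25), LINC01355 (-1.12) and LINC01311 (-1.11). LINC01605 read 3.41 to 5.63 CPM untreated, 5.87 to 6.77 CPM at 8 h and 2.31 to 2.99 CPM at 24 h. Its fall against untreated cells at 24 h (-0.85 ± 0.16) was called under each setting tried, while its rise of 0.41 at 8 h (adjusted p = 0.028) was lost without untreated replicate 1 (0.22, adjusted p = 0.124), TEPA 8 h replicate 1 (0.35, adjusted p = 0.109) or TEPA 8 h replicate 2 (0.40, adjusted p = 0.070). LINC01311 had 0.54 at 8 h and -0.57 at 24 h against untreated cells (adjusted p = 0.036 and 0.041), and neither call held with DESeq2 (adjusted p = 0.079 and 0.087). Its call at 8 h was also lost without untreated replicate 1 (0.37, adjusted p = 0.154), TEPA 8 h replicate 2 (0.52, adjusted p = 0.093) or TEPA 8 h replicate 3 (0.45, adjusted p = 0.136). Its call at 24 h was lost without any 1 of 5 libraries, untreated replicates 2 and 3, TEPA 8 h replicate 2 and TEPA 24 h replicates 1 and 3 (log2 fold change -0.57 to -0.46, adjusted p from 0.053 to 0.149).

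LINC00472, a host of microRNA genes, rose at 8 h and was back near its untreated level at 24 h. Its span on chromosome 6 (chr6:71187161-71420745, minus strand) contains MIR30C2, within an exon, and MIR30A, on the same strand. It read 18.1, 22.8 and 21.3 CPM untreated, 33.7, 32.7 and 33.6 CPM at 8 h and 20.6, 19.1 and 23 CPM at 24 h. All 8 h libraries lay above all others, and the 24 h and untreated libraries overlapped. The log2 fold change came to 0.68 ± 0.08 at 8 h (adjusted p = 1.5e-06), 0.00 at 24 h (adjusted p = 0.98) and -0.68 ± 0.08 from 8 h to 24 h (adjusted p = 1e-06). OGFRL1, a protein-coding gene that overlaps its span on the other strand, had -0.80 at 8 h and -0.55 at 24 h, both called, and the libraries kept strand.

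Mature microRNAs are too short for these libraries, so the values above are of the host transcript. The 5′ mature products of the hosted genes share 1 seed, bases 2 to 8, given in capitals in the RefSeq sequences (GRCh38.p14; chr6:71403595-71403616 and chr6:71377003-71377025, minus strand). The seed is the part that pairs with target messenger RNAs, and it is what places the pair in the miR-30 family.
hsa-miR-30a-5p: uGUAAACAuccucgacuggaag
hsa-miR-30c-5p: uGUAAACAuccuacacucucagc

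The other members with a hosted microRNA gene were LINC01505, with MIR8081 in an exon, and LINC01138, with MIR5087. LINC01138 read 1.89 to 2.41 CPM untreated, 2.42 to 3.19 CPM at 8 h and 2.06 to 3.1 CPM at 24 h and was called in no comparison (log2 fold changes 0.28, 0.23 and -0.05). Their mature sequences, with the seed in capitals, carry seeds unlike each other and unlike the miR-30 seed.
hsa-miR-8081: cUUGAGUCgugccuuucugaaug
hsa-miR-5087: gGGUUUGUagcuuugcuggcaug

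Of the 10 most abundant members by CPM, LINC00205 was the one called in no comparison. LINC02870 fell from 70.3, 63.5 and 70.3 CPM in untreated cells to 39.7, 41 and 40.7 CPM at 8 h and 48.4, 53.3 and 49.1 CPM at 24 h. The 3 groups were apart, with log2 fold changes of -0.75 ± 0.05 (adjusted p = 1.8e-09) and -0.44 ± 0.05 (adjusted p = 7.2e-07). LINC02693, the highest, had 0.11 after 8 h (adjusted p = 0.053) and -0.07 after 24 h (adjusted p = 0.23). The former was called in edgeR without TEPA 24 h replicate 2 or 3 (adjusted p = 0.042 in both) and with upper-quartile factors (adjusted p = 0.031). It was also called with at least 10 counts in every library (adjusted p = 0.045) or only the 2 groups compared (adjusted p = 0.043). LINC00205 had 0.07 and 0.10, neither called. LINC01128 rose by 0.46 ± 0.07 at 8 h and 0.55 ± 0.07 at 24 h, from 12.7 to 15 CPM untreated to 18.2 to 20.3 CPM and 20 to 20.8 CPM. It has 1 near-identical stretch elsewhere in the genome, so its count is uncertain. LINC00205 was called against untreated cells at both times (0.15 and 0.18, adjusted p = 0.017 and 0.003) when untreated replicate 1 was left out.

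Members known from cancer studies were listed by name. LINC00511 (chr17:72290091-72640472, minus strand) fell from 18.5, 15.9 and 17.1 CPM untreated to 10.4, 10.7 and 10.6 CPM at 8 h and 9.7, 10.9 and 8.87 CPM at 24 h. Treated and untreated libraries did not overlap, and the log2 fold changes were -0.70 ± 0.08 (adjusted p = 1.2e-06) and -0.80 ± 0.08 (adjusted p = 1.3e-07). SLC39A11, which encodes a ZIP-family metal transporter and ends 5477 bases upstream on the same strand, went from 17.1 ± 1.45 CPM to 10.2 ± 0.58 and 11 ± 0.46 CPM, or -0.74 and -0.64. LINC00342 rose from 4.88, 4.75 and 4.97 CPM to 9.22, 9.41 and 9.36 CPM at 8 h and 6.86, 6.34 and 6.45 CPM at 24 h, with 0.94 ± 0.08 and 0.43 ± 0.09, and all groups were apart. It has 2 near-identical stretches elsewhere, so its count is uncertain.

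LINC00467, which had -0.14 at 8 h (adjusted p = 0.083, or 0.048 without TEPA 24 h replicate 3), fell at 24 h (-0.39 ± 0.07, adjusted p = 6.3e-05), as did LINC01116 (-0.20 ± 0.06, adjusted p = 0.0075). LINC00963 had -0.35 at 8 h (adjusted p = 0.031) and 0.23 after 24 h (adjusted p = 0.12), with untreated replicate 1 at 23.9 CPM against 16.8 and 17.4 CPM. Without that library the values were -0.17 (adjusted p = 0.060) and 0.40, the latter called, and the call at 8 h was also lost without TEPA 8 h replicate 1 (-0.29, adjusted p = 0.101) or 3 (-0.36, adjusted p = 0.067). LINC01503 was called between 8 h and 24 h (0.88 ± 0.22, adjusted p = 0.0021). At 8 h it had -0.52 (adjusted p = 0.061), which was called without untreated replicate 3 (-0.69, adjusted p = 0.023) and with no filter on low counts (-0.54, adjusted p = 0.040). Of the 10 names listed, LINC00473, LINC01133, LINC00707 and LINC00520 did not reach the rule.

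Per length of annotated exon, the order of levels differed from that by CPM. LINC02870 stood at 31.8, 18.9 and 23.5 CPM per kilobase in untreated, 8 h and 24 h cells, LINC00601 at 9.62, 6.73 and 13.0, LINC00973 at 10.5, 9.32 and 5.75 and LINC00205 at 6.30, 6.61 and 6.75. LINC00674 came first at 45.4 CPM per kilobase on average, but 97.5% of its 160 exon bases are shared with another gene model on the same strand and it is typed as a pseudogene, so its count is uncertain. LINC01775, with 371 exon bases, came to 10.0 CPM per kilobase at 24 h. LINC00601, LINC00973 and LINC00674 are named here after their values were seen.

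By position, 171 members could be placed on GRCh38 with GENCODE 44 (161 by name and 10 by a synonym), and 167 were typed as long noncoding RNA. The members had a median of 3669 exon bases in 5 exon blocks, a median span of 16879 bases and a median distance of 16283 bases to the nearest protein-coding gene. Despite the name of the class, 25 overlapped the span of a protein-coding gene, on the same strand for 10 and on the opposite strand for 17, some having both, and 17 began within 2000 bases of a protein-coding start on the opposite strand. Of the 36 members in either position, 12 were higher and 5 lower at 8 h and 11 and 3 at 24 h, and of the 135 in neither, 26 and 35 at 8 h and 39 and 25 at 24 h. These are 47.2% and 38.9% of the 36 and 45.2% and 47.4% of the 135, where 49.7% and 52.3% of all genes tested were called. There were 26 members that share exon bases with another gene on the same strand and 23 with a near-identical copy elsewhere. The 128 members free of both, and with 1 gene model, gave 23 higher and 31 lower at 8 h, 34 and 25 at 24 h and 46 and 27 from 8 h to 24 h, or 42.2%, 46.1% and 57.0%, where 49.7%, 52.3% and 54.9% of all genes tested were called. Besides LINC01409, LINC00842 and LINC00342, named members with such a copy are LINC01128, LINC00957, LINC00857, LINC00622, LINC00894, LINC01943 and LINC02211. Their counts are uncertain for the same reason.

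The divergent pairs, where member and coding gene start within 2000 bases of each other on opposite strands, could be read in 16 cases. Not all start back to back, since LINC00909, LINC01006, LINC00337 and LINC00894 overlap their partners ZNF407, RNF32, ICMT and EOLA2. From 8 h to 24 h both genes were called in 5 pairs, in the same direction each time. LINC00857 and ANXA11, an annexin gene, both rose (0.98 and 0.41), as did LINC01770 and VWA1 (0.85 and 0.26) and LINC01521 and PATZ1 (0.58 and 0.22), while LINC01184 and SLC12A2 (-0.77 and -0.25) and LINC01089 and the histone methyltransferase gene SETD1B (-0.57 and -0.39) both fell. At 8 h both were called in 5 pairs, 4 in the same direction, and at 24 h against untreated cells in 3 pairs, 1 in the same direction. Across the 16 pairs Pearson's r was 0.58 at 8 h, -0.05 at 24 h and 0.80 from 8 h to 24 h, and Spearman's rho was 0.56, -0.10 and 0.78. These describe pairs of genes measured in the same libraries. In LINC00235 and CAPN15 the coding gene went from 95.7 ± 7.34 CPM to 128 ± 4.19 at 8 h and 83.7 ± 2.32 at 24 h, and the member, near 1 CPM, had 1.35 at 8 h and -0.65 from 8 h to 24 h, the latter not called. Without TEPA 24 h replicate 3 it became -1.20 from 8 h to 24 h (adjusted p = 0.0041). The pairs described here were chosen by the position rule and, for LINC00857, LINC01770, LINC01521, LINC01089 and their partners, after their values were seen. LINC01089 shares 41.7% of its exon bases with RHOF, a protein-coding gene on the same strand, so its count is uncertain.

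**Figure D4:**
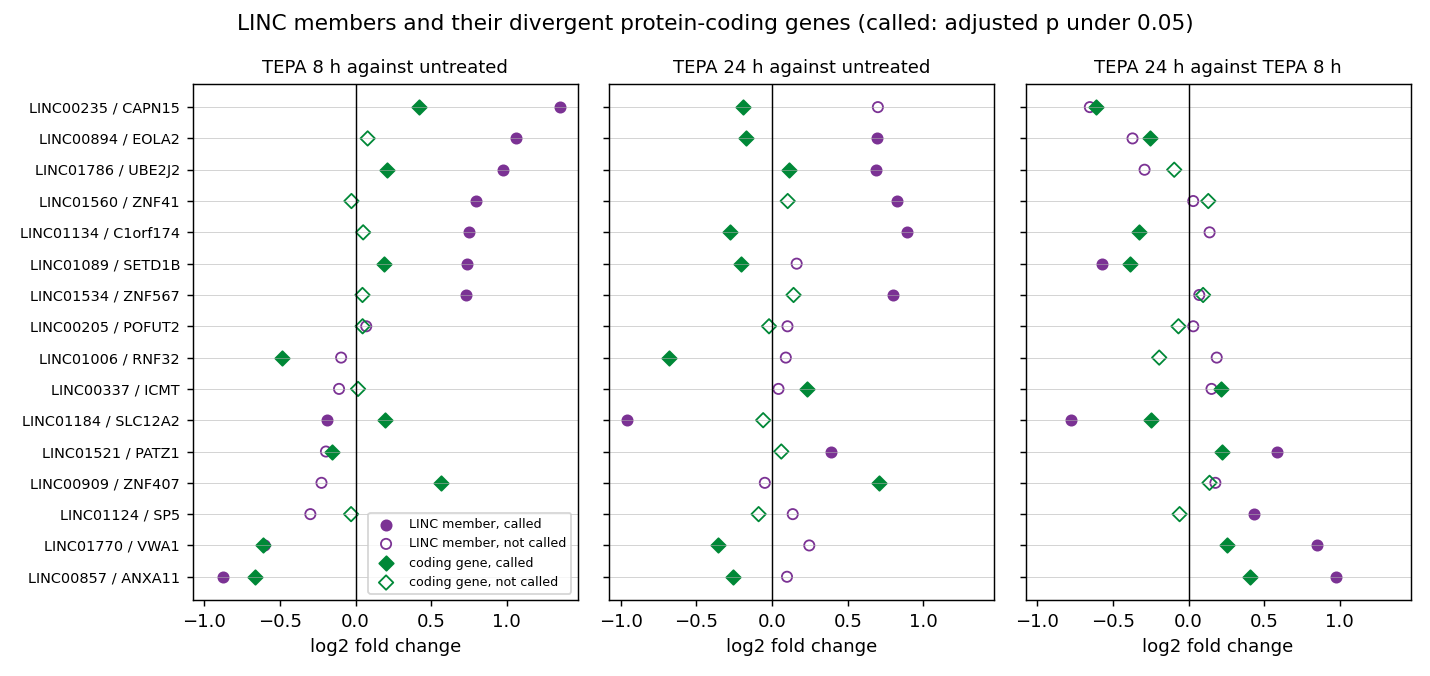
Each row is 1 of 16 pairs, with the log2 fold change of the LINC member (circle) and of its divergent protein-coding gene (diamond) in the 3 comparisons, filled where the adjusted p was under 0.05. In the right panel the filled pairs lie on the same side of 0, from -0.77 and -0.25 for LINC01184 and SLC12A2 to 0.98 and 0.41 for LINC00857 and ANXA11.

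With the nearest protein-coding gene, 130 members could be set side by side (123 distinct genes). Both were called in 30 cases at 8 h, 13 in the same and 17 in opposite directions, in 39 at 24 h (21 and 18) and in 46 from 8 h to 24 h (24 and 22). Pearson's r across these genes was 0.13, 0.10 and 0.20, and Spearman's rho 0.10, 0.07 and 0.16. For LINC01128, the nearest coding gene SAMD11, 64477 bases away, rose from 1.45 ± 0.32 CPM to 2.79 ± 0.21 and 6.18 ± 0.54 CPM. Members that lie within 50000 bases of each other formed 8 pairs. LINC01356 and LINC01357, overlapping on opposite strands of chromosome 1, were both higher at 24 h (1.14 and 0.81), and LINC02211 and LINC02228, overlapping on opposite strands of chromosome 5, went apart (0.67 and -0.96, both called). LINC01356 reached 0.5 CPM at 24 h only. LINC01356, LINC01357 and LINC02211 are named after their values were seen.

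Other classes of long noncoding RNA names at 0.5 CPM or more were read in the same fit, where 49.7%, 52.3% and 54.9% of all genes tested were called in the 3 comparisons. Of 313 antisense names, 96 were higher and 55 lower at 8 h and 105 and 47 at 24 h. Of 21 microRNA host gene names, 10 were higher and 3 lower at 8 h and 9 and 3 at 24 h. Of 24 small nucleolar RNA host gene names, 15 were higher and 2 lower at 8 h, and 6 and 7 at 24 h. From 8 h to 24 h, 92 antisense names were higher and 71 lower, and 7 and 7 microRNA host gene names. Of the 24 small nucleolar RNA host gene names, none was higher and 15 were lower. Among LINC members 63 were higher and 37 lower, so LINC and antisense names both had more higher than lower. The difference between the classes was not tested.

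The genes that process and degrade such RNAs changed little in size. Of 59 tested of 61 listed, 32 were higher and 4 lower at 8 h, 18 and 18 at 24 h, and 13 and 28 from 8 h to 24 h. The listed names not tested were absent from the count table, not filtered out for low counts. Over all genes tested, the shares higher and lower were 25.3% and 24.5%, 25.6% and 26.7%, and 26.1% and 28.8% in these comparisons. Among 22 genes of the nuclear exosome and its cofactors, 11 were higher and 1 lower at 8 h, 5 and 7 at 24 h, and 3 and 13 from 8 h to 24 h. For the Integrator complex, which cleaves nascent RNA, the counts among 14 tested of 15 were 8 and 1, 7 and 3, and 5 and 4. For the 10 microRNA processing genes they were 6 and 0, 5 and 2, and 3 and 5, and for cap binding and export, with 13 tested of 14, 7 and 2, 1 and 6, and 2 and 6. The median log2 fold change of the 59 was 0.12, 0.01 and -0.11. A log2 fold change of at least 0.5 was reached at 8 h by the Integrator subunit INTS14 (0.52), and at 24 h by INTS14 (0.73), the Argonaute gene AGO3 (0.63) and the export factor THOC7 (-0.74). From 8 h to 24 h it was reached, all downwards, by the exosome subunit EXOSC2 (-0.54), the poly(A) binding protein PABPN1 (-0.61), the microRNA processing enzyme DICER1 (-0.50) with its partner TARBP2 (-0.60), and THOC7 (-0.50).

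At the limit of the rule, the members just inside were LINC02175, LINC00852 and LINC00239, and the names just outside were LINC02688, LINC01348 and LINC00271, each at about 0.5 CPM. LINC00852, at 0.33 CPM untreated and at 0.5 CPM or more in the TEPA groups only, had 1.03 at 8 h. LINC00239, at 0.5 CPM or more at 24 h only, had 1.27 from 8 h to 24 h. Among those outside, LINC02688 had 1.66 at 8 h, from 0.28 ± 0.13 CPM untreated to 0.93 ± 0.42 CPM, so the limit also leaves out LINC names that differ between groups.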

How the data were processed

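RNA sequencing was analysed for 9 libraries of MDA-MB-231 cells, 3 untreated and 3 each after 8 h and 24 h of TEPA. According to the methods and the submitters' processing notes, the authors checked paired reads of 100 bases with FastQC, aligned them to hg38 with HISAT2 and counted them with featureCounts over exons per gene name, with strand, on Ensembl release 103 (GRCh38). The deposited values are raw counts, 1 column per library, and all columns were used. Counting per name sums loci that share a name, and reads of near-identical copies can be lost or split.

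From these counts, levels were computed as CPM on library sizes scaled by TMM factors of 0.977 to 1.039. The test was edgeR's (version 4.0.16, R 4.3.3), after filterByExpr at a minimum count of 10 had left 16556 genes with 99.9% of counts. One quasi-likelihood model was fitted to all 9 libraries, with Benjamini-Hochberg adjustment over all genes tested, and called means an adjusted p under 0.05. The common biological coefficient of variation came to 0.0481, and at 3 libraries a group members under 1 CPM had a median standard error of about 0.28 on the log2 scale at 8 h. The fit was tested on simulated data.

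Members were placed with GENCODE 44, whose exons are pooled over transcripts, which may differ from the release the authors counted over. Near-identical copies were sought with minimap2 2.31 (at least 97% identity over at least 50% of the exons). Promoters and microRNAs came from RefSeq (GRCh38.p14). The members and lists (marker genes, RNA decay and processing genes, known LINC names, name classes, motifs) were chosen with earlier results of these data known. Genes named are the 8 highest and 8 lowest log2 fold changes called in each comparison, the 10 highest levels, the 3 names on either side of the limit, microRNA hosts, listed LINC names, and listed processing genes beyond 0.5 on the log2 scale. Alternatives were DESeq2 1.42.0, other scaling factors (RLE, upper quartile), other filters, fits on the 2 groups compared, a replicate block, leaving out each library, other limits on fold and level, and, chosen after seeing the data, library sizes without mitochondrial genes.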

Additional observations from a re-analysis of the deposited data

Results flagged for a closer look

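The 8 h and 24 h libraries differed from each other, by the test of 24 h against 8 h itself, in 63 members that were higher and 37 that were lower at 24 h. In each named case below every treated library of one time lay apart from every library of the other. Values are log2 fold changes of 24 h against 8 h.

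Of the members named, those higher at 24 h than at 8 h were LINC02009 (3.39), LINC01505 (2.08), LINC01929 (1.91), LINC01085 (1.65), LINC01615 (1.52), LINC00957 (1.49), LINC02257 (1.42), LINC01588 (1.37), LINC00239 (1.27), LINC02475 (1.19), LINC00989 (1.16), LINC01775 (1.05), LINC02018 (0.97), LINC01182 (0.96), LINC00513 (0.89), LINC01503 (0.88), LINC00622 (0.74), LINC00261 (0.59), LINC00963 (0.57) and LINC02870 (0.31). Those lower at 24 h than at 8 h were LINC01291 (-1.91), LINC01238 (-1.84), LINC01293 (-1.83), LINC02595 (-1.37), LINC01605 (-1.26), LINC01004 (-1.25), LINC01355 (-1.12), LINC01311 (-1.11), LINC00926 (-1.01), LINC01184 (-0.77), LINC00472 (-0.68), LINC00342 (-0.51), LINC00842 (-0.44), LINC02228 (-0.37), LINC00467 (-0.25), LINC01116 (-0.24) and LINC02693 (-0.18). LINC02009, LINC00239, LINC01238 and LINC00926 reached 0.5 CPM in 1 group only, so a difference was built into their choice. LINC01505, LINC00957 and LINC02257 were below it at 8 h only, and LINC01291 and LINC01004 at 24 h only. The rule favoured a difference in these too. The 24 h against 8 h differences of LINC02228 and of LINC00622 were no longer called when TEPA 8 h replicate 1 was left out (adjusted p = 0.163 and 0.060, edgeR). The call of LINC02228 was also lost with DESeq2 (adjusted p = 0.090) and under the other settings given with its values above. Whether time of treatment, time in culture or the handling of the separate time points lies behind the differences listed cannot be told apart, since each time is 1 set of 3 libraries.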

How the results depend on the processing

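No call was reversed in direction under any alternative. Counts of members called stayed within 1.5 times under RLE and upper-quartile factors, DESeq2, both filters, fits on the 2 groups compared and library sizes without mitochondrial genes. For members higher, and then lower, they ranged when 1 library at a time was left out from 30 to 40 and from 29 to 41 at 8 h, from 43 to 53 and from 26 to 30 at 24 h, and from 54 to 64 and from 30 to 40 from 8 h to 24 h, and any difference was called in 107 to 123 members. With a log2 fold limit of 1 the counts higher and lower were 9 and 10 at 8 h, 12 and 4 at 24 h, and 18 and 10 from 8 h to 24 h. With a limit of 0.5, 26 were lower at 8 h, and with a member threshold of 1 CPM, 25 were higher at 8 h.

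For the processing genes, a limit of 0.5 left 1 higher and 0 lower at 8 h, 2 and 1 at 24 h, and 0 and 5 from 8 h to 24 h, and a limit of 1 left 0 in each. Called antisense names fell to 30 at 8 h and 37 at 24 h at a limit of 1, and microRNA host gene names to 5 and 3. Small nucleolar RNA host gene names fell to 10 and 5 at a limit of 0.5 and to 4 and 1 at a limit of 1. Members called in the same direction as their nearest coding gene fell to 5, 7 and 5 in the 3 comparisons at a limit of 0.5 and to 0, 1 and 1 at a limit of 1. These follow from the limits themselves.

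The replicate numbers did not pair the libraries: deviations from the group means correlated at -0.080 to 0.038 within numbers (9 pairs) and -0.054 to 0.073 between numbers (18 pairs). With a replicate block, 39 members were higher and 37 lower at 8 h, 51 and 29 at 24 h, and 61 and 38 from 8 h to 24 h, and of 153 named results only the fall of LINC00963 at 8 h lost its call (adjusted p = 0.054). DESeq2 changed 4 of the 153. Members under 1 CPM carry few counts.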
